A study of Mus musculus with 36 samples.

Results

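The collagen genes are the mouse genes whose symbol is Col, a type number, the letter a and a chain number. They were found by that spelling alone, and 43 of the 37417 genes of the count table matched. Of these, 11 encode fibrillar collagen chains, 8 chains of basement membrane collagens and 24 other collagen chains. A collagen molecule is a triple helix of alpha chains, which fibroblasts, pericytes, endothelial cells and epithelial cells make in different mixtures. Fibrillar collagens (types I, II, III, V, XI, XXIV and XXVII) assemble into the fibrils that give connective tissue and tumour stroma its strength. Type IV collagen forms the sheet-like network of the basement membrane under epithelia and around vessels, where types XV and XVIII are attached, and the remaining types form beaded filaments, anchoring fibrils, short-chain networks or coats on other fibrils. Decorin (Dcn) and lumican (Lum) are small proteoglycans that fibroblasts secrete and that bind collagen fibrils.

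Bulk mRNA was sequenced from 36 subcutaneous tumours of wild type mice of 12 weeks, each tumour giving 1 library. The labels give MC38 colon carcinoma and PancO2 pancreatic carcinoma cells in C57BL/6J mice, and CT26 colon carcinoma cells in BALB/c mice. Mice of each model were given a control IgG, α-CTLA4 or α-PD-1 at 10 mg/kg into the peritoneum, which gave 9 labelled groups of 4. Each model is 1 transplanted cell line, and RNA came from the whole tumour at end stage, so that host stroma and tumour cells were measured together. Libraries are named by labelled group and mouse number. Because this is bulk RNA, fewer cells of a type and less RNA per cell cannot be told apart.

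The libraries went against the labels, and this bears on every value below. H2-Ea-ps, the name in the annotation for the class II E alpha gene that BALB/c mice express and C57BL/6 mice do not, lay between 32.8 and 134 CPM (counts per 1000000 counts on genes) in 12 libraries and at or below 0.0845 CPM in the other 24. By this gene, 16 of the 36 libraries were opposed to the strain on their label. Ceruloplasmin (Cp), a copper-carrying oxidase, lay between 1389 and 2168 CPM in another 12 libraries, between 255 and 611 CPM in 12 more, and between 36.5 and 143 CPM in those with H2-Ea-ps. The libraries are therefore described in 3 classes of 12: those above 10 CPM for H2-Ea-ps (H2-Ea class), those above 1000 CPM for Cp (Cp class) and those above neither threshold (neither class), and 0 libraries were above both. Each class held libraries labelled with all 3 models and all 3 treatments, and 8 of the 9 labelled groups held all 3 classes. Classes were taken from measured values, so differences between them are given as a description with no test.

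Library totals over genes ran from 11821687 to 41751023 counts in 35 libraries. Library PancO2 anti-PD-1 71, of the H2-Ea class, had 7883106 counts, 86.5% of its listed reads in lines that name no gene and 15.7% of its gene counts on mitochondrial genes, against 44.8% to 63.4% and 2.80% to 4.35% in the others. It had the highest CPM of all 36 libraries for 12 collagen genes, and for 8 of these more than 2 times the next library. The highest of these 8 was Col22a1 at 46.7 CPM (368 counts), against at most 5.16 CPM elsewhere. The others were lower, such as Col19a1 at 11.2 CPM (88 counts), against at most 0.561 CPM elsewhere, and Col25a1 at 9.39 CPM (74 counts), against at most 0.224 CPM elsewhere. The values within the H2-Ea class that this library moved most are given with and without it.

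Of the 43 collagen genes, 35 passed the filter on low counts over all libraries. The other 8 were Col2a1, Col4a3, Col4a6, Col6a6, Col9a1, Col9a2, Col19a1 and Col25a1, mostly chains of cartilage, kidney or nerve cell collagens, each with a class median of at most 0.63 CPM. Of the 35, 18 had a range of CPM in at least 1 class that did not overlap the ranges of the other classes, 51.4% of them, beside 29.5% of the 16323 genes that passed. The count was also 18 with TMM-scaled CPM and 19 without library PancO2 anti-PD-1 71. By group, 7 of the 10 fibrillar genes that passed, 3 of the 6 basement membrane genes and 8 of the 19 other genes had such a range. The median share of log2 variance that lay between classes was 86.7% for fibrillar, 63.4% for basement membrane and 78.1% for other collagen genes, beside 62% over all genes.

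Promoter windows are printed for Col4a1 and Col4a2, a head-to-head pair whose levels went together, and for Col1a2 and Col3a1, fibrillar genes that were highest in different classes. RefSeq windows (GRCm38.p6) run from 250 bases before to 50 bases after the start site and were found for 34 of the 43 genes. They are written 5′ to 3′ on the strand of the gene, with capitals marking TATAAA (the TATA box), CCAAT (the CCAAT box) and GGGCGG (the GC box of SP1 factors) on either strand. The Col4a1 window is chr8:11312777-11313076, minus strand, and the Col4a2 window chr8:11312555-11312854, plus strand. The Col1a2 window is chr6:4505368-4505667, plus strand, whose start site lies 804 bases inside the gene as GENCODE draws it, and the Col3a1 window is chr1:45311288-45311587, plus strand.
Col4a1: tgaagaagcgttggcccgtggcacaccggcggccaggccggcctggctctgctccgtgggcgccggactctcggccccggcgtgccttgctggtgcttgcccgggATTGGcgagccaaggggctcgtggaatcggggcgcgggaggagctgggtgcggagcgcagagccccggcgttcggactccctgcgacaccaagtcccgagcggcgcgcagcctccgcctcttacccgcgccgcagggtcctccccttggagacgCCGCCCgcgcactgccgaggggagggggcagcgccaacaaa
Col4a2: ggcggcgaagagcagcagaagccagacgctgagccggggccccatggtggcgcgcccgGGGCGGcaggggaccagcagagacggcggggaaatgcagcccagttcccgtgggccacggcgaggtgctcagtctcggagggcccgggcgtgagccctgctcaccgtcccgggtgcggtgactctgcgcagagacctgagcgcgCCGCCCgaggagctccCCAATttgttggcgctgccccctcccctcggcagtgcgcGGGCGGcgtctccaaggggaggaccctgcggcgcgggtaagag
Col1a2: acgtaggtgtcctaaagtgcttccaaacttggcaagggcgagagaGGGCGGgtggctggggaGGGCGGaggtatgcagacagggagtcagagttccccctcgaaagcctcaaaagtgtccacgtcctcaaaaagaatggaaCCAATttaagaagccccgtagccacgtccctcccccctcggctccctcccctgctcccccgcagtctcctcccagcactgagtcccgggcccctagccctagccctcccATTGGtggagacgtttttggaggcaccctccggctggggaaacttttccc
Col3a1: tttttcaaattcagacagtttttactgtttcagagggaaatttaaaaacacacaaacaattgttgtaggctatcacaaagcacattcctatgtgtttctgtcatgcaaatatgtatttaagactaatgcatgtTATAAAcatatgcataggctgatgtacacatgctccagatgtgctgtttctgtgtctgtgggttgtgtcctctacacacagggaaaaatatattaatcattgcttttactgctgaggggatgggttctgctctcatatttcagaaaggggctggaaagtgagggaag

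The Col4a1 and Col4a2 start sites lie 21 bases apart on opposite strands, and their windows share 78 bases. Those windows held no TATAAA, 1 CCAAT each, and 1 and 3 GGGCGG. The Col1a2 window held 2 CCAAT and 2 GGGCGG, and the Col3a1 window, with 37.7% G and C, held 1 TATAAA and no other searched motif. Over the 37 windows of collagen genes, GGGCGG was in 22 (59.5%), CCAAT in 13 and TATAAA in 5, beside 35.7%, 37.4% and 13.6% of all 32851 windows. A match of letters is a description and not a site of binding.

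Among fibrillar collagens, the chains of type I, the main fibril collagen of skin, bone and stroma, parted in the H2-Ea class. By the medians Col1a1 was lowest and Col1a2 highest there, while both were higher in the neither class than in the Cp class. Col1a1, its alpha 1 chain (chromosome 11), lay between 187 and 527 CPM with a median of 297 in the H2-Ea class, between 434 and 1591 CPM with a median of 763 in the Cp class, and between 967 and 2398 CPM with a median of 1380 in the neither class. Col1a2, its alpha 2 chain (chromosome 6), lay between 964 and 1893 CPM with a median of 1400 in the H2-Ea class, between 100 and 641 CPM with a median of 204 in the Cp class, and between 479 and 881 CPM with a median of 644 in the neither class. Every library of the H2-Ea class was above every other library for Col1a2, whose median was 6.85 times that of the Cp class. The Col1a1 range of the Cp class overlapped those of both other classes. Col1a2 was the single collagen gene of the 35 that was highest in the H2-Ea class without overlap, beside 4.75% of all genes.

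Col3a1, Col5a1, Col5a2, Col11a2 and Col24a1 were highest in the neither class. Col3a1, the chain of the fine fibrils around vessels and in granulation tissue, lay between 134 and 1080 CPM (median 411) in the H2-Ea class and between 424 and 1204 CPM (median 670) in the Cp class. It lay in the neither class between 2699 and 7904 CPM (median 4232), so that the lowest of these 12 libraries was above all 24 others, and the median was 10.3 times that of the H2-Ea class and 6.31 times that of the Cp class. Col5a2, a chain of type V collagen, which starts fibrils and sets their width, lay between 24.6 and 125 CPM (median 45.9) in the H2-Ea class, between 8.79 and 83.9 CPM (median 24.3) in the Cp class, and between 380 and 634 CPM (median 514) in the neither class. This was the widest gap among the abundant fibrillar chains, a median 21.1 times that of the Cp class. Col5a1, its partner chain, had medians of 151, 247 and 585 CPM in the H2-Ea, Cp and neither classes, with the neither class at 416 CPM or more and the other libraries at 362 CPM or less. Col11a2, a chain of cartilage fibrils, had medians of 3.70, 5.10 and 40.5 CPM, and Col24a1, a minor fibrillar chain, of 0.779, 0.469 and 3.41 CPM in the same order, again with the neither class apart. In all, 8 of the 35 genes were highest in the neither class without overlap, beside 5.24% of all genes.

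The remaining fibrillar chains had other orders. Col5a3, the third chain of type V, was lower in the H2-Ea class (13.5 to 66.8 CPM, median 26.6) than in the Cp class (100 to 263 CPM, median 167) and the neither class (129 to 288 CPM, median 191), whose ranges overlapped each other. Col27a1, a chain of thin fibrils best known from cartilage, had a median of 29.5 CPM in the Cp class (15.1 to 52.5), 3.29 CPM in the H2-Ea class (1.13 to 15.7) and 2.03 CPM in the neither class (0.945 to 3.09). Its Cp and H2-Ea ranges overlapped by a narrow margin, so it is not among the 18. The overlap came from library PancO2 anti-PD-1 71 alone (124 counts). Without that library the Cp class was apart and higher for Col27a1, which made the count 19.

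**Figure D1:**
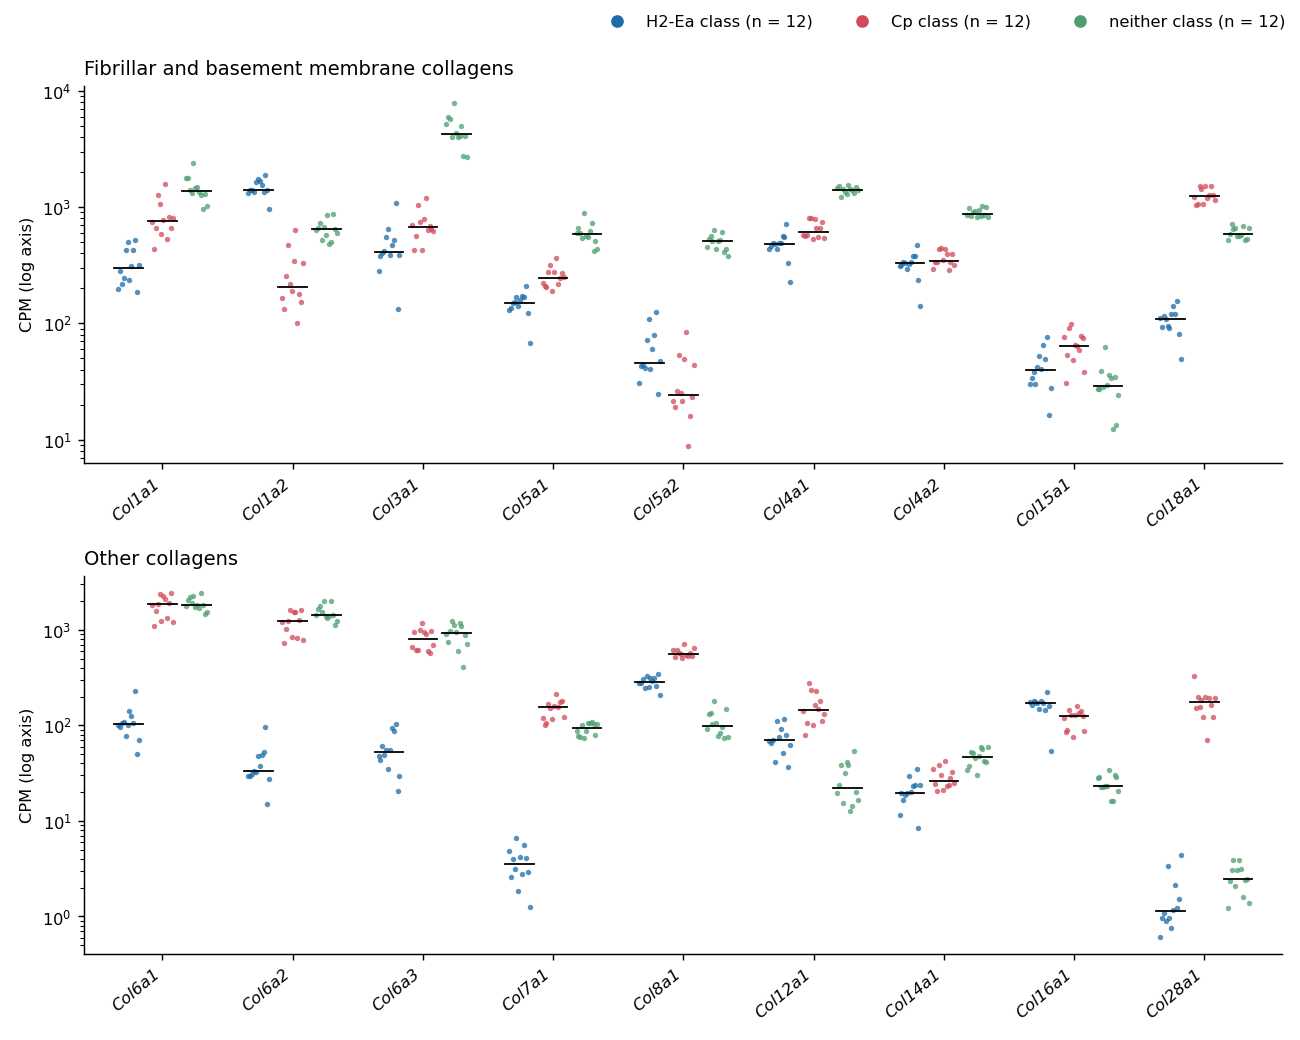
CPM on a log axis of 18 collagen genes in every library, coloured by class, with a black bar at the class median (12 libraries a class). The neither class stands above the others for Col3a1, Col5a2, Col4a1 and Col4a2, the H2-Ea class above for Col1a2 and below for Col6a1, Col6a2, Col6a3 and Col7a1, and the Cp class above for Col8a1, Col18a1 and Col28a1.

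Among basement membrane collagens, the Col4a1 and Col4a2 chains of the network found under most epithelia and around vessels were higher in the neither class. Col4a1 lay between 225 and 721 CPM (median 486) in the H2-Ea class, between 536 and 814 CPM (median 614) in the Cp class and between 1221 and 1559 CPM (median 1416) in the neither class. Col4a2 lay between 142 and 469 CPM (median 331), 289 and 448 CPM (median 346), and 816 and 1017 CPM (median 880) in the same order. The neither class was both apart and narrow for this pair, with its highest library 1.28 times its lowest for Col4a1 and 1.25 times for Col4a2. In the H2-Ea class those folds were 3.20 and 3.31. The lowest H2-Ea values were both in library PancO2 anti-PD-1 71 (1773 and 1119 counts). Without it the H2-Ea folds were smaller, though still wider than those of the neither class.

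Col18a1, whose chain carries endostatin at its end, was apart in all 3 classes. It lay between 49 and 155 CPM (median 110) in the H2-Ea class, between 521 and 712 CPM (median 583) in the neither class and between 1051 and 1529 CPM (median 1238) in the Cp class, a median 11.2 times that of the H2-Ea class. Such a full order was seen for 2 of the 35 genes, Col18a1 and Col8a1, beside 3.58% of all genes. Col15a1, its relative in vessel and muscle basement membranes, had overlapping ranges, with medians of 39.6, 64.3 and 28.9 CPM in the H2-Ea, Cp and neither classes. Col4a5, a type IV chain of kidney and smooth muscle, had medians of 89.2, 91.7 and 89.1 CPM, and 0.129% of its log2 variance lay between classes, the lowest share among the genes that passed. Col4a1, next to it in function, had 86.0% of its variance between classes.

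Among the other collagens, the Col6a1, Col6a2 and Col6a3 chains of type VI, which forms beaded filaments around cells of connective tissue, were low in every library of the H2-Ea class. Col6a1 lay between 50.6 and 228 CPM (median 103) there, between 1099 and 2412 CPM (median 1837) in the Cp class and between 1478 and 2396 CPM (median 1821) in the neither class. Col6a2 had medians of 33.0, 1228 and 1430 CPM, and its Cp median was 37.2 times that of the H2-Ea class. Col6a3 had medians of 52.2, 794 and 923 CPM. For all 3 chains the Cp and neither ranges overlapped and the highest H2-Ea library was far below both. Col6a4, a further type VI chain, instead had medians of 0.306, 0.302 and 9.42 CPM, with the neither class apart and higher.

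Col7a1, the chain of the anchoring fibrils that tie epidermis to dermis, was also lower in the H2-Ea class (1.27 to 6.65 CPM, median 3.55) than in the Cp class (99.7 to 215 CPM, median 155) and the neither class (72.8 to 108 CPM, median 93.5). The Cp median was 43.6 times that of the H2-Ea class. With Col5a3, Col18a1 and the 3 type VI chains, it made 6 genes lowest in the H2-Ea class without overlap, beside 8.19% of all genes.

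The Cp class was highest for Col8a1, Col18a1 and Col28a1, which makes 3 of 35, beside 7.56% of all genes. Without library PancO2 anti-PD-1 71 there were 4, with Col27a1 added, beside 8.64% of all genes. Col8a1, a short-chain collagen of vessel walls, lay between 508 and 716 CPM (median 562) in the Cp class, 208 and 346 CPM (median 284) in the H2-Ea class and 74.4 and 178 CPM (median 99.1) in the neither class. Col28a1, a beaded filament chain best known from peripheral nerve, lay between 69.7 and 327 CPM (median 175) in the Cp class, against at most 4.44 CPM in the H2-Ea class and 3.87 CPM in the neither class. Its Cp median was 155 times that of the H2-Ea class (median 1.13 CPM) and 71.7 times that of the neither class (median 2.44 CPM), the widest separation of the 43. The Cp class was lowest without overlap for 0 of the 35, beside 4.87% of all genes.

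The collagens that sit on the surface of fibrils did not share 1 order of medians, and that of Col14a1 was the order of Col1a1 and Col3a1. Col16a1 was lower in the neither class (16.2 to 34.4 CPM, median 23.1) than in the H2-Ea class (53.5 to 222 CPM, median 170) and the Cp class (75.3 to 159 CPM, median 126). With Col8a1, it was 1 of 2 genes lowest in the neither class without overlap, beside 2.43% of all genes. Col12a1 had medians of 70 CPM in the H2-Ea, 145 CPM in the Cp and 21.8 CPM in the neither class, and Col14a1 of 19.6, 26.3 and 46.8 CPM in the same order, and the ranges of both overlapped. Col17a1, the transmembrane collagen that anchors basal keratinocytes, was near 1 CPM in most libraries, with medians of 0.789, 1.74 and 0.905 CPM and a highest library of 30.6 CPM in the Cp class.

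To compare levels between genes, CPM was divided by the length of the transcript with the longest coding sequence. On this scale the most abundant collagen gene was Col1a2 in the H2-Ea class (median 262 CPM per kb), before Col3a1 (73.9) and Col4a1 (73.4). In the Cp class it was Col6a1 (448 CPM per kb), before Col6a2 (311) and Col18a1 (221). In the neither class it was Col3a1 (761 CPM per kb), before Col6a1 (444) and Col6a2 (362). All collagen reads made up 0.291% to 0.651% of gene counts in the H2-Ea class, 0.720% to 1.24% in the Cp class and 1.21% to 2.17% in the neither class.

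The makeup of the collagen mRNA therefore differed between classes as well as its amount. Type I gave a median of 44.1% of collagen CPM per kb in the H2-Ea class, 9.38% in the Cp class and 13.2% in the neither class. Type VI gave 5.64%, 44.6% and 33.0%. Type III gave 10.6%, 6.55% and 28.7%, and type XVIII 2.60%, 12.6% and 3.82%, in the same order. Summed over the group, fibrillar collagens were 57.9%, 19.4% and 48.7%, while basement membrane collagens kept a nearer share of 22.1%, 22.9% and 17.1%. Within the basement membrane group the makeup differed, as type IV gave 18.6%, 9.49% and 13.0%.

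**Figure D2:**
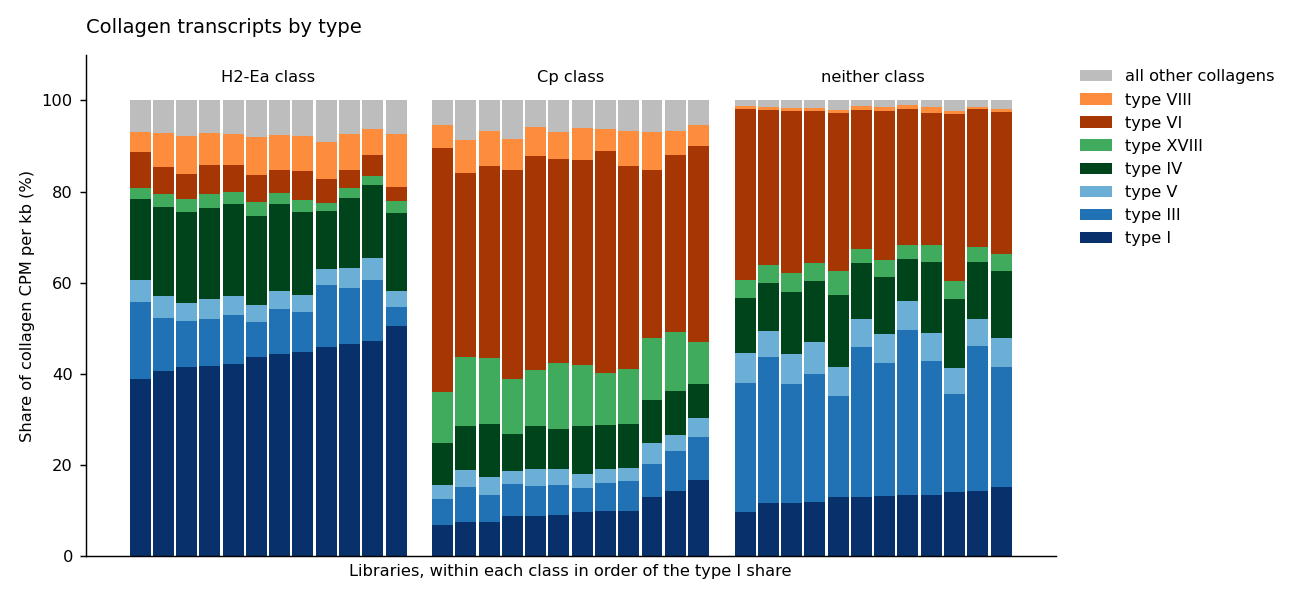
Stacked bars give the share of each collagen type in the CPM per kb of all collagen genes (%), 1 bar per library, ordered within each class by the type I share. Type I is the largest part of every H2-Ea bar at 38.8% or more, type VI the largest of the Cp bars at 36.9% or more, and type III is 21.4% or more in the neither bars.

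Chains that assemble in 1 molecule did not keep 1 ratio over the classes. The ratio of Col1a1 to Col1a2 counts per base lay between 0.121 and 0.298 (median 0.183) in the H2-Ea class, between 2.02 and 4.84 (median 2.86) in the Cp class and between 0.990 and 3.20 (median 2.27) in the neither class. Type I collagen is mostly a trimer with more alpha 1 than alpha 2 chains, and in the H2-Ea class the alpha 2 mRNA exceeded the alpha 1 mRNA in all 12 libraries. Col5a1 to Col5a2 had medians of 2.39, 7.50 and 0.923. By contrast, Col4a1 to Col4a2 stayed between 1.34 and 1.92 in all 36 libraries, with medians of 1.43, 1.77 and 1.53. Col6a3 to Col6a1 had medians of 0.185, 0.172 and 0.195, although both genes were more than 15 times lower in the H2-Ea class by their medians, and Col6a1 to Col6a2 had medians of 2.78, 1.44 and 1.20. Ratios use 1 transcript length per gene, and another length would move all libraries of a ratio alike.

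**Figure D3:**
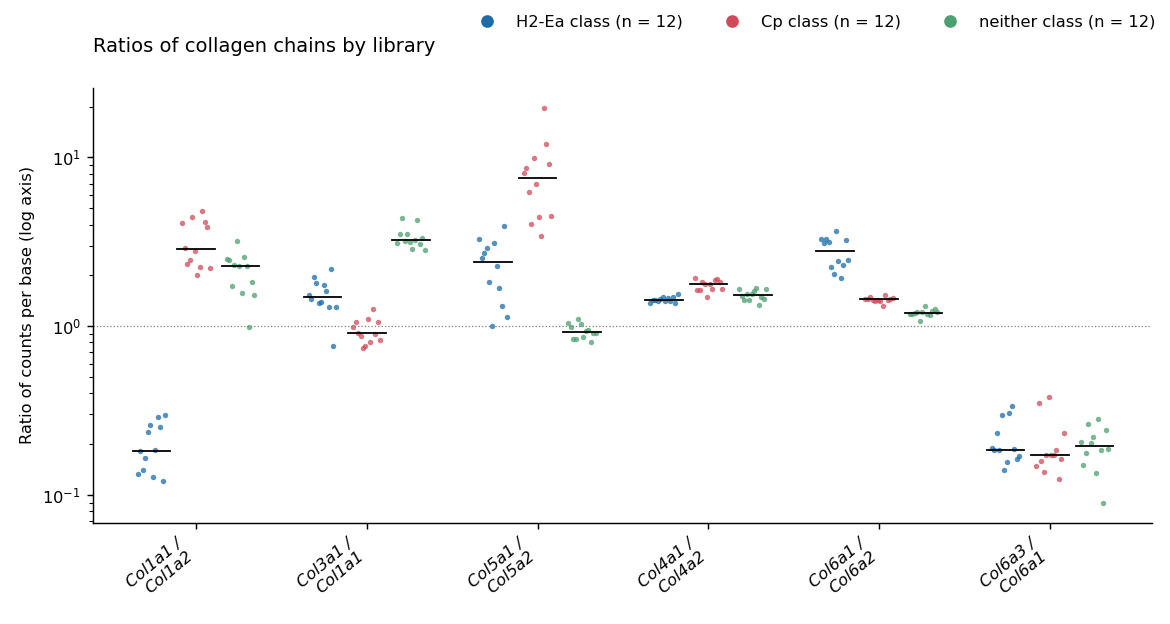
Ratios of counts per base for 6 pairs of chains, on a log axis, with 1 point per library and a black bar at the class median. Col1a1 to Col1a2 lies below 0.298 in the H2-Ea class and above 0.990 in the other libraries, while Col4a1 to Col4a2 stays between 1.34 and 1.92 in all classes.

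Dcn itself was apart in all classes, at 68.2 to 238 CPM (median 183) in the H2-Ea class, 1598 to 2922 CPM (median 2313) in the Cp class and 635 to 1154 CPM (median 794) in the neither class. The 8 fibroblast markers summed to 260 to 456, 2008 to 3492 and 1212 to 2019 CPM in the same order, and all 8 had a median of at least 1 CPM in each class. Dcn is 1 of the 8 and, by the medians, made up most of the sum in the H2-Ea and Cp classes. Others did not share its order, as Pdgfra (46.3, 252 and 472 CPM) and Mmp2 (15.2, 74.1 and 175 CPM) had their highest median in the neither class and Thy1 (37.8, 25.5 and 17.7 CPM) in the H2-Ea class. Neither Col1a1, Col3a1 nor Col5a2 followed that order, being highest in the neither class, and Col1a2 ran against it. Pericyte markers summed to medians of 99.7, 690 and 371 CPM, but the 4 genes did not share 1 order. Pdgfrb (61.4, 405 and 259 CPM) and Notch3 (5.50, 253 and 8.70 CPM) were highest in the Cp class, and Rgs5 (31.2, 18.3 and 43.9 CPM) and Cspg4 (3.88 and 3.32 CPM in the H2-Ea and Cp classes) in the neither class. The part of pericytes in the collagen levels was not tested. The 5 endothelial markers summed to 93.2 to 211, 71 to 164 and 102 to 191 CPM, and 0 of the 5 had a class apart.

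Whether collagen genes moved with Dcn was asked within each class, so that differences between classes could not give the relation. The slope is the log2 change of a gene for each doubling of Dcn CPM, fitted with edgeR's quasi-likelihood test to 12 libraries, and p-values were adjusted over all genes tested. None of the collagen genes passed, being 0 of 36 tested in the H2-Ea class, 0 of 35 in the Cp class and 0 of 35 in the neither class. Over all genes, 0 of 16254, 1 of 16192 (0.00618%) and 0 of 16346 passed. Before adjustment, p was under 0.05 for 0, 9 and 7 collagen genes, beside 8.60%, 20.8% and 17.3% of all genes. limma-voom called 0 in each class, and DESeq2's Wald test called 0, 5 and 5, beside 4.96%, 8.16% and 3.76% of all genes. Each library has a mouse number of its own in the labels, and p-values measure the spread between these samples only. Simulated counts with known slopes, given only to genes above a count limit, were run through the same edgeR fit. It recovered 70%, 58% and 58% of slopes of 1 log2 unit per doubling in the H2-Ea, Cp and neither classes. The absence of edgeR calls therefore does not show that collagen levels were unrelated to Dcn.

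In the Cp class, where Dcn was highest, the median slope of the collagen genes was 0.45 beside 0.01 over all genes, and 25 of 35 slopes were above 0. Col15a1, the vessel and muscle basement membrane chain, had a slope of 1.28 ± 0.28 (SE, edgeR adjusted p = 0.0648). Its log2 CPM went with that of Dcn at r = 0.808 and rho = 0.818 over the 12 libraries (unadjusted permutation p = 0.00124 for r). Without the 2 libraries farthest in Dcn, r was 0.782. This was 1 of 106 such relations computed with Dcn, of which 0 passed after adjustment, and the same genes were also set against Lum. Among 9864 genes of at least 10 CPM, the r of Col15a1 with Dcn had rank 153. Col27a1 had a slope of 1.64 ± 0.44 (edgeR adjusted p = 0.0867), Col6a1 of 0.99 ± 0.26 (edgeR adjusted p = 0.0830) and Col6a2 of 0.99 ± 0.30 (edgeR adjusted p = 0.106). DESeq2 called these 4 and Col16a1, all higher, beside 4.07% of all genes. Leaving out library MC38 IgG 7, edgeR called Col6a1, Col15a1 and Col27a1, while 5.84% of all genes were then called. At the other end were Col17a1 at -3.06 ± 2.38, Col9a3 at -0.75 ± 0.41 and Col13a1 at -0.67 ± 0.53. Type I and III chains had slopes within about 1.5 SE of 0, with Col1a1 at 0.32 ± 0.53 and Col3a1 at 0.58 ± 0.40. Col1a2, the other type I chain, had a slope below 0, between -0.89 and -0.14 when 1 library was left out.

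The 3 largest slopes in the neither class were those of Col3a1, Col8a1 and Col1a1. Col3a1 had a slope of 1.30 ± 0.33 (edgeR adjusted p = 0.121), Col8a1 of 1.15 ± 0.36 (edgeR adjusted p = 0.165) and Col1a1 of 1.14 ± 0.24 (edgeR adjusted p = 0.0910). Col1a1 went with Dcn at r = 0.810 and rho = 0.685, which was rank 83 among 9799 genes. Col5a3 had a slope of 0.96 ± 0.22 (edgeR adjusted p = 0.114). Below 0 were Col20a1 at -1.47 ± 0.69, Col6a4 at -1.22 ± 0.95, Col14a1 at -0.77 ± 0.26 and Col7a1 at -0.61 ± 0.18 (edgeR adjusted p = 0.144). DESeq2 called Col1a1, Col3a1, Col5a3 and Col8a1 higher with Dcn, beside 1.65% of all genes, and Col7a1 lower, beside 2.12%. The median slope over the 35 genes was 0.00, as over all genes, with 17 above 0.

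In the H2-Ea class the median slope was 0.00 beside -0.02 over all genes, with 18 of 36 above 0. Among collagen genes with a class median of at least 1 CPM, the largest slopes were Col7a1 at 0.59 ± 0.35, Col6a3 at 0.59 ± 0.34 and Col9a3 at 0.44 ± 0.22, and the smallest Col22a1 at -2.04 ± 1.26, Col27a1 at -0.57 ± 0.62 and Col5a2 at -0.29 ± 0.33. Without library PancO2 anti-PD-1 71, Col22a1 was at 0.14 ± 0.16 and Col27a1 at -0.021 ± 0.27. Without library CT26 anti-CTLA4 34, Col22a1 was at -3.82 ± 1.14, Col27a1 at -1.52 ± 0.91 and Col5a2 at 0.70 ± 0.60. Col9a3 was then at 0.98 ± 0.35, Col6a3 at 0.67 ± 0.57 and Col7a1 at 0.34 ± 0.55. The order of these slopes thus depended on single libraries. The smallest edgeR adjusted p of a collagen gene was 0.606. A test of equal slopes in the 3 classes called 0 of 38 collagen genes, beside 0.788% of 19037 genes. An unadjusted p under 0.05 was found for 8 of the 38, beside 18.9% of all genes. Without library PancO2 anti-PD-1 71 the test of equal slopes called Col8a1 (edgeR adjusted p = 0.0475), beside 7.28% of all genes.

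**Figure D4:**
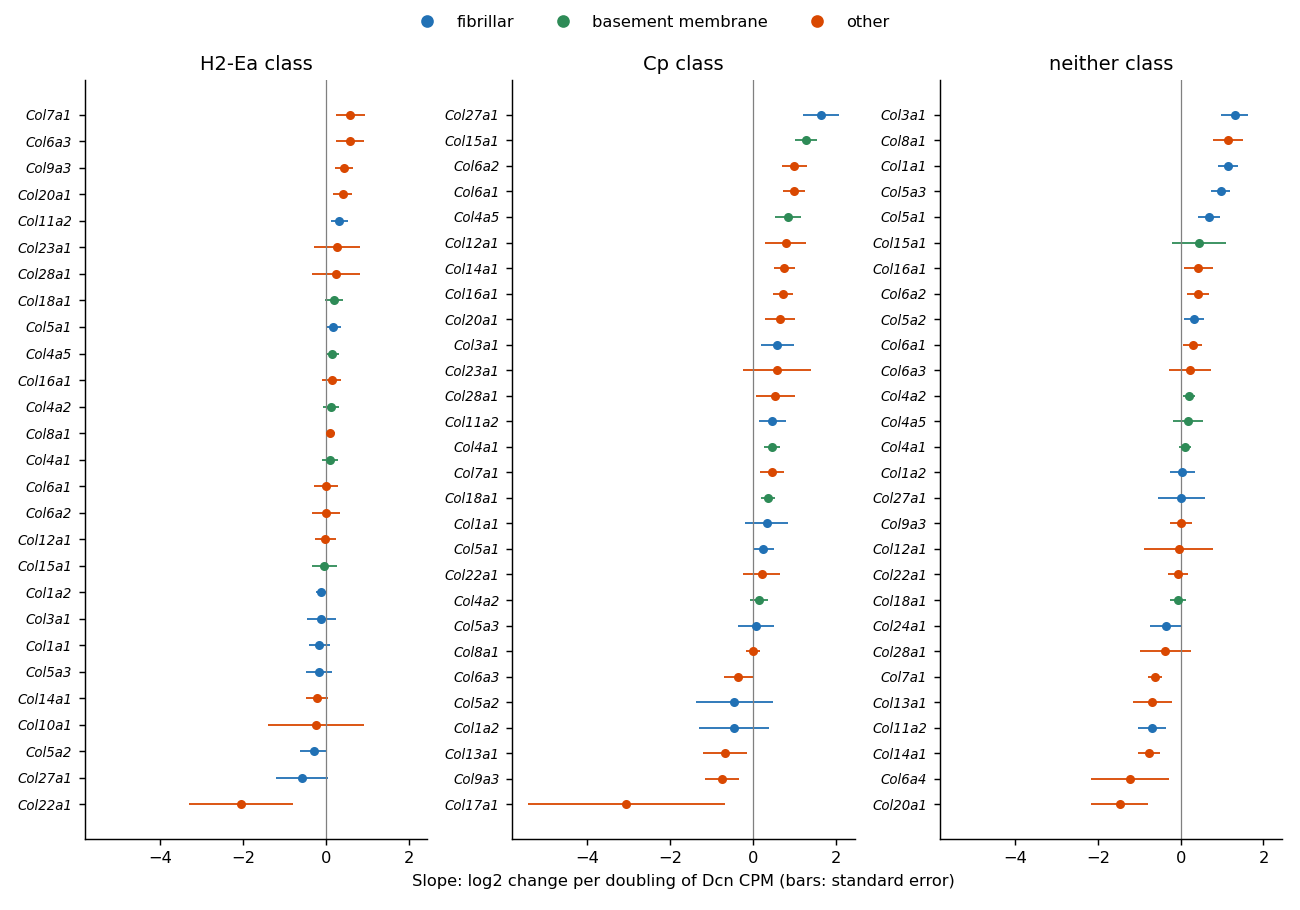
Slopes of the collagen genes with a class median of at least 1 CPM on Dcn within each class (log2 change per doubling of Dcn CPM, bars give the standard error), coloured by group. Col27a1 and Col15a1 lead in the Cp class, Col3a1, Col8a1 and Col1a1 in the neither class, and none passed the adjusted threshold.

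The genes most like Dcn within a class were not collagens. Among them were Cep170 (r = 0.943), Hivep1, Cflar and Suco in the H2-Ea class, Trmt2b (r = 0.964), Mrgprf, Cpq, Ankrd46 and mt-Nd2 in the Cp class, and Rnf25 (r = 0.962), Znrf1, Atp6v1e1, Lrpap1 and Ndufv3 in the neither class, each over 12 libraries. Dcn and Lum, although both are fibroblast proteoglycans, went together at r = -0.09 in the H2-Ea class, 0.604 in the Cp class (unadjusted permutation p = 0.0423) and -0.32 in the neither class.

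With Lum in place of Dcn, other collagen genes came forward. Lum lay between 2.05 and 25.0 CPM (median 9.98) in the H2-Ea class, 78.5 and 212 CPM (median 124) in the Cp class and 2.99 and 33.8 CPM (median 13.6) in the neither class. In the H2-Ea class Col3a1 rose with Lum by 0.79 ± 0.08 per doubling (edgeR adjusted p = 0.00309) and Col14a1 by 0.58 ± 0.09 (edgeR adjusted p = 0.0445), which makes 2 of 36 genes, beside 0.0923% of all genes. Col3a1 and Lum went together at r = 0.953 and rho = 0.741, with r = 0.760 without the 2 farthest libraries. Without library PancO2 anti-PD-1 71, a choice made after the data were seen, the count was 6, with Col5a2, Col5a3, Col6a2 and Col15a1 added, beside 0.681% of all genes called and 0.656% called higher. In the Cp class Col11a1, a fibrillar chain of cartilage and activated fibroblasts, rose by 2.32 ± 0.46 per doubling of Lum (edgeR adjusted p = 0.0165), and Col12a1 by 0.84 ± 0.18 and Col15a1 by 0.70 ± 0.17 (edgeR adjusted p = 0.0208 and 0.0278). These were 3 of 35, 8.57%, beside 11.3% of all genes called and 4.4% called higher. Col11a1 was a low gene there, with 112 counts (4.86 CPM) in library MC38 anti-PD-1 18 and at most 29 counts in the others of the class. The same library had the highest Lum (212 CPM) and the highest Col12a1 (279 CPM), and was 1 of the 2 farthest in Lum. Lum gave, in the neither class, 0 calls among 37 collagen genes and 0 among 16736 genes. Before adjustment, 6 of the 37 had a p under 0.05, beside 7.68% of all genes.

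Endothelial cells are a known source of type IV collagen, and Pecam1, their adhesion molecule, lay between 29 and 70.3 CPM (median 53.7) in the H2-Ea class, 25.7 and 52.7 CPM (median 33.2) in the Cp class and 38.4 and 63.6 CPM (median 51.9) in the neither class. In the H2-Ea class 18 of 36 collagen genes were called with Pecam1, 12 higher and 6 lower, but so were 30.2% of all genes. Col4a1 rose by 1.23 ± 0.10 per doubling of Pecam1 and Col4a2 by 1.27 ± 0.10 (edgeR adjusted p = 8.57e-06 for both), while Col4a4, Col13a1, Col22a1 and Col26a1 were among the 6 that fell. Those 4 had their highest CPM in library PancO2 anti-PD-1 71. Without that library, 5 collagen genes were called, all higher, beside 0.73% of all genes called and 0.62% called higher. These were Col4a1 at 1.32 ± 0.15, Col4a2 at 1.18 ± 0.14, Col6a1 at 2.47 ± 0.33, Col6a2 at 3.13 ± 0.38 and Col5a3 at 2.76 ± 0.54 (edgeR adjusted p between 0.00404 and 0.0469). Without both libraries farthest in Pecam1, PancO2 anti-CTLA4 62 and PancO2 anti-PD-1 71, the count was 0. In the Cp class Col4a1 was the single call, at 0.60 ± 0.10 (edgeR adjusted p = 0.0467, beside 0.111% of all genes), and it was lost without the 2 farthest libraries, MC38 anti-PD-1 18 and PancO2 anti-PD-1 68. In the neither class 0 of 37 were called, 2 with an unadjusted p under 0.05, beside 4.82% of all genes.

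**Figure D5:**
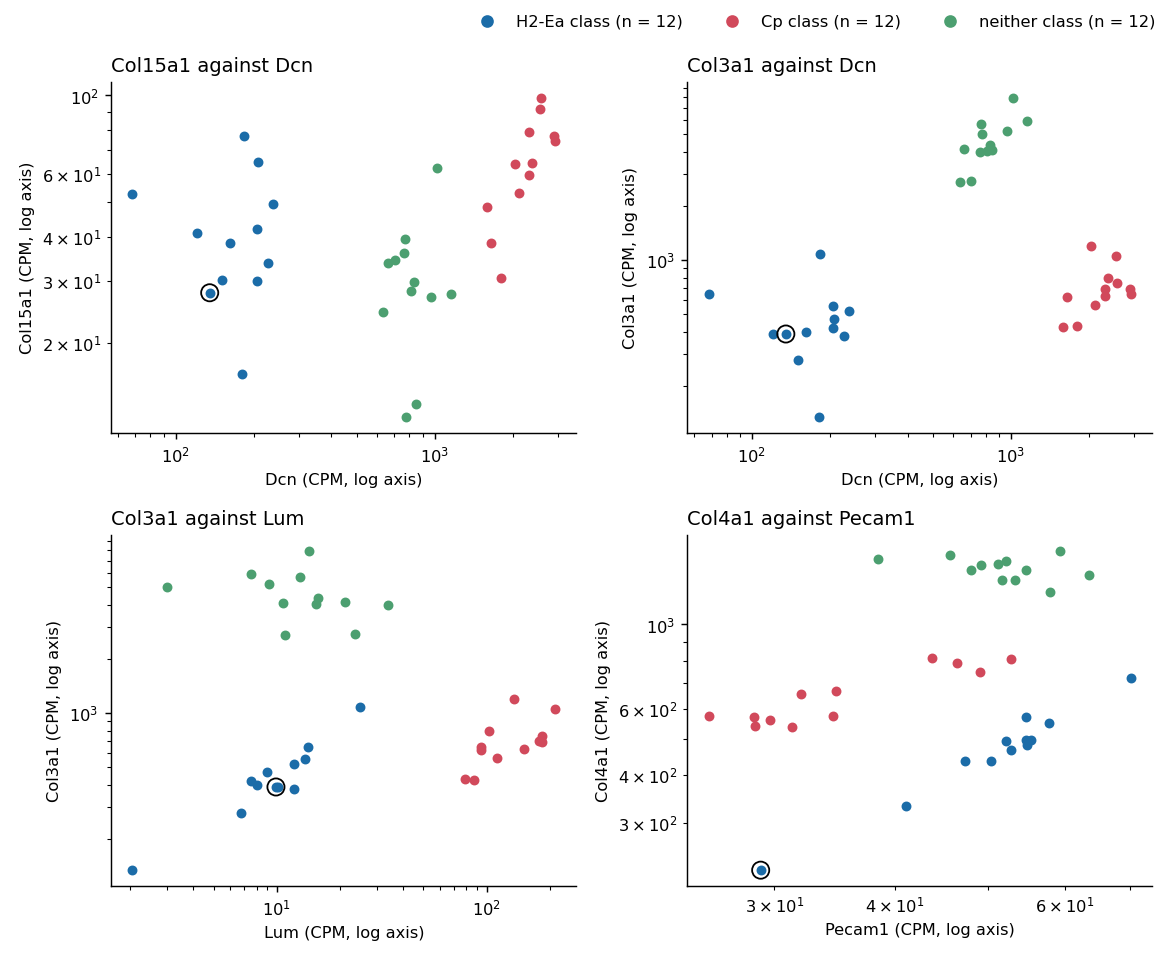
Scatter plots on log axes of Col15a1 and Col3a1 against Dcn, Col3a1 against Lum and Col4a1 against Pecam1 (CPM), 1 point per library coloured by class, with library PancO2 anti-PD-1 71 ringed. The classes form separate clouds, Col3a1 runs along Lum within the H2-Ea class (r = 0.953), and the Col4a1 slope on Pecam1 is 1.23 in that class.

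Col17a1 went with Krt5, a keratin of basal keratinocytes of the skin, and whether skin was taken with some tumours was not tested. Krt5 was at most 0.169 CPM in the H2-Ea class, and reached 108 CPM in the Cp class and 12.9 CPM in the neither class. Within the H2-Ea class it gave 0 edgeR calls among 36 collagen genes, also before adjustment. Library PancO2 IgG 48 had both the highest Krt5 of the Cp class and the 30.6 CPM of Col17a1, and library CT26 IgG 29 both the highest Krt5 and the highest Col17a1 (4.18 CPM) of the neither class. Col17a1 rose with Krt5 by 0.38 ± 0.05 per doubling in the Cp class (edgeR adjusted p = 0.00219) and by 0.29 ± 0.03 in the neither class (edgeR adjusted p = 1.07e-04), the single collagen call in each, beside 0.536% and 0.22% of all genes. Both calls were lost without the 2 libraries farthest in Krt5, which were PancO2 IgG 48 and MC38 anti-PD-1 17 in the Cp class, and CT26 IgG 29 and PancO2 IgG 49 in the neither class. Col7a1, which keratinocytes also make, lay between 72.8 and 215 CPM in all 24 libraries of those classes, most of which had Krt5 at or near 0. The 6 keratinocyte markers summed to medians of 3.04, 4.75 and 5.61 CPM and to at most 14.5, 568 and 91.0 CPM in the H2-Ea, Cp and neither classes.

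By the median r, collagen genes of at least 10 CPM went together with each other in the H2-Ea and Cp classes more than in the neither class. The pair correlations were chosen after the data were seen and are a description. Over 153 pairs in the H2-Ea class the median r was 0.600, beside 0.176 over all gene pairs of that level. Pairs with r of at least 0.8 were 43 (28.1%), beside 11.1% of all pairs, and without library PancO2 anti-PD-1 71 they were 48 (31.4%), beside 1.85%. In the Cp class the median over 210 pairs was 0.485, beside 0.0542, and 18 pairs (8.57%) reached 0.8, beside 1.73%. In the neither class the median over 190 pairs was 0.132, beside 0.0173, and 12 pairs (6.32%) reached 0.8, beside 1.53%. Between basement membrane genes the medians were 0.863, 0.690 and 0.0567, and between fibrillar genes 0.716, 0.651 and -0.000386. The fibrillar median of the neither class hides a split, as 10 of its 21 pairs had r above 0 and 6 (28.6%) reached 0.8. In the Cp class 5 of 21 fibrillar pairs (23.8%) reached 0.8, and in the H2-Ea class 7 of 15 (46.7%). Genes of 1 library share its depth and cell makeup, so pairs are not independent of each other.

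Some pairs held in every class and others in 1 or 2. Col6a1 and Col6a2, whose genes are both on chromosome 10, had r = 0.876, 0.995 and 0.975 in the H2-Ea, Cp and neither classes. Col1a1 and Col3a1 had r = 0.849, 0.902 and 0.901. Both pairs were thus close in all 3 classes. Col4a1 and Col4a2, the head-to-head pair, had r = 0.993 and 0.883 in the H2-Ea and Cp classes and 0.535 in the neither class, where their range was narrowest. Col1a1 and Col1a2, chains of 1 molecule, had r = 0.411, 0.826 and -0.00722, and r = 0.658 in the H2-Ea class without library PancO2 anti-PD-1 71. Col1a2 also went with Col5a2 in the Cp class (r = 0.961). Col7a1 and Col8a1 went in opposite directions in the neither class (r = -0.883), as did Col8a1 and Col11a2 (r = -0.841).

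The enzymes and carriers that act on collagen were read from fixed lists. Of 18 genes of chain modification and folding, all passed the filter, and 7 had a class apart, beside 29.5% of all genes. Of these, 5 were lower in the H2-Ea class (8.19% of all genes) and 5 higher in the neither class (5.24% of all genes). P3h1 and Crtap, which hydroxylate a proline of fibrillar chains as 1 complex, had medians of 17.2 and 46.2 CPM in the H2-Ea class, 25.9 and 69.3 CPM in the Cp class and 54.6 and 87.2 CPM in the neither class. Fkbp10, a prolyl isomerase of the type I pathway, lay between 143 and 213 CPM in the neither class, against at most 86.9 CPM elsewhere. Serpinh1, the collagen chaperone, had medians of 433, 260 and 858 CPM with ranges that touched.

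Of 11 processing and cross-linking genes that passed, 5 had a class apart, again beside 29.5% of all genes. Loxl1, an oxidase that cross-links matrix fibres, had medians of 8.36, 72.9 and 71.8 CPM, and Bmp1, the protease that trims procollagen, of 62.5, 178 and 229 CPM, both lower in the H2-Ea class. Loxl3 and Pcolce2 were higher in the Cp class, with medians of 209 and 26.5 CPM there. Of 6 proteoglycan and matrix genes, which include Dcn and Lum, 5 were apart, among them Bgn (biglycan) at medians of 96.1, 583 and 1446 CPM and Fn1 (fibronectin) at 3847, 9876 and 3767 CPM. Of 9 collagen receptor genes that passed 3 were apart, a share near the 29.5% of all genes, and Mrc2, the receptor that takes up collagen for breakdown, had medians of 44.8, 18.5 and 235 CPM. With Dcn, 0 genes of any of these lists were called in any class by edgeR.

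By the groups on the labels, collagen genes gave no call. Comparisons between the models under IgG and between each antibody and IgG within a model made 9 in all, each of 4 against 4 libraries, and edgeR called 0 of 35 or 36 collagen genes in each, beside 0% of the 16285 to 16510 genes tested. Between 0 and 8 collagen genes had an unadjusted edgeR p under 0.05, and DESeq2 and limma-voom also called 0 in each. The 8 of 35 were in PancO2 α-PD-1 against PancO2 IgG, beside 5.56% of all genes there. PancO2 α-PD-1 held no library of the neither class, while PancO2 IgG held all 3 classes, so class makeup and label differed together in that comparison. The spread within a labelled group was wide, and 8 of the 9 groups held all 3 classes. Col3a1 in MC38 IgG, for example, was 1637 ± 2377 CPM (SD, n = 4), and the 4 libraries ran from 280 to 5193 CPM. In simulated counts the fit of PancO2 IgG against MC38 IgG recovered 7% of changes of 1 log2 unit and 60% of changes of 2 log2 units. The 0 calls therefore do not show that collagen levels were equal.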

How the data were processed

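RNA of 36 tumours was sequenced from poly-A selected Illumina TruSeq libraries. The authors deposited raw read counts per Ensembl gene, made by mapping to GRCm38/mm10 with TopHat and Bowtie2 and counting with HTSeq, per the labels and the study's methods (FastQC 0.11.5 and HTSeq 07.2 in the submitters' processing notes). Strand setting and annotation release are not given in the sources used here, so overlapping genes such as Col4a1 and Col4a2 are uncertain where they overlap (22 bases). The 5 HTSeq summary lines were left out. CPM was computed from the deposited counts. Symbols were matched for 32608 of 37417 identifiers. Genes were tested with edgeR 4.0.16 in R 4.3.3 (filterByExpr, TMM, robust quasi-likelihood, two-sided, Benjamini-Hochberg adjusted p under 0.05 over all genes). Slopes were taken on log2 CPM (prior count 2). Alternatives were DESeq2 1.42.0, limma 3.58.1 (voom), other scalings and filters, leaving out libraries, and Lum in place of Dcn. Correlations used 100000 permutations (numpy 2.4.6, pandas 2.3.3, scipy 1.17.1, Python 3.11.15), and figures matplotlib 3.10.9. The steps were tested on simulated data. Values per class are given for 14 chosen collagens, for those with a class apart, and for the 3 largest and smallest Dcn slopes per class at a median of at least 1 CPM. Other collagens with values, among them Col4a5, Col27a1, Col5a3, Col17a1 and the Lum and Pecam1 calls, were named after their values were seen. The members, classes, gene lists and tests were chosen with earlier results of these data known. Some genes of these lists are not reported here.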

Additional observations from a re-analysis of the deposited data

Results flagged for a closer look

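In 4 cases a labelled group had 1 library far from the other 3, among 36 sets of 4 values examined (Col1a1, Col3a1, Col4a1 and Col6a1 in the 9 labelled groups). The limit used marks about 1 in 20 sets by chance where values are independent and come from 1 population. The labelled groups mixed classes, so the 4 cases cannot be set against that rate. They came from libraries MC38 IgG 2 and CT26 anti-CTLA4 32 alone, each for both Col3a1 and Col4a1. Col3a1 was at 5193 CPM in library MC38 IgG 2, beside 280 to 696 CPM in the others of its group, and at 3974 CPM in library CT26 anti-CTLA4 32, beside 390 to 647 CPM. Col4a1 was at 1470 CPM in library MC38 IgG 2, beside 436 to 573 CPM, and at 1559 CPM in library CT26 anti-CTLA4 32, beside 491 to 536 CPM. In both groups the library that stood away was the single one of the neither class. The part of the class in these values was not tested within the labelled groups.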

How the results depend on the processing

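The 171 alternatives of the 9 labelled comparisons called 0 collagen genes, as did the reported fits. Of 94 alternatives of the other counts, 80 gave a count within 1.5 times the reported one. For Dcn, the count went from 0 to 2 in the H2-Ea class with Lum (6 with Lum and without library PancO2 anti-PD-1 71), from 0 to 5 with DESeq2's Wald test in both the Cp and the neither class, and from 0 to 3 with Lum in the Cp class. Leaving out 1 library gave 0 to 3 for Dcn in the Cp class and 0 to 0 in the others. For Pecam1 it went from 18 to 0 without the 2 farthest libraries and to 5 without library PancO2 anti-PD-1 71 in the H2-Ea class, and in the Cp class from 1 to 0 without the 2 farthest and with Dcn as a second slope. For Krt5 it went from 1 to 0 without the 2 farthest in the Cp and neither classes, and to 2 with Dcn as a second slope in the neither class. The test of equal slopes went from 0 to 1 without library PancO2 anti-PD-1 71. The cause was not tested.

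None of the Dcn slopes followed here was called, so a change of sign is a change of an uncalled value. In the H2-Ea class, slopes changed sign without the 2 farthest libraries to 0.53 (Col1a1), 0.23 (Col14a1), -0.61 (Col17a1), 0.72 (Col5a2), 0.47 (Col3a1), 0.74 (Col15a1), 0.32 (Col1a2) and 0.45 (Col12a1), with Lum to 0.47, 0.58, -0.052, 0.69, 0.79, 0.57, 0.10 and 0.40 in that order, and with library size only to 0.011 (Col12a1). In the Cp class they changed sign with Lum to 0.55 (Col17a1), 0.052 (Col5a2), 0.25 (Col1a2) and -0.014 (Col4a2). In the neither class they changed sign without the 2 farthest to 0.52 (Col17a1), -0.67 (Col15a1) and -0.018 (Col1a2), and with Lum to -0.036 (Col1a1), 0.51 (Col17a1), 0.014 (Col7a1), -0.081 (Col5a2), -0.16 (Col3a1), -0.13 (Col5a1), -0.0069 (Col4a1), -0.068 (Col4a2), 0.44 (Col12a1) and -0.16 (Col6a3). Leaving out 1 library, signs changed within -0.28 to 0.55 (Col1a1), -0.29 to 0.13 (Col14a1), -0.25 to 0.24 (Col17a1), -0.42 to 0.70 (Col5a2), -0.21 to 0.42 (Col3a1), -0.14 to 0.43 (Col15a1), -0.17 to 0.030 (Col1a2) and -0.22 to 0.057 (Col12a1) in the H2-Ea class, -0.63 to 0.013 (Col6a3) in the Cp class, and -0.17 to 0.014 (Col18a1), -0.35 to 0.80 (Col15a1), -0.15 to 0.23 (Col1a2), -0.48 to 0.55 (Col12a1) and -0.060 to 0.64 (Col6a3) in the neither class.

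Fits without library PancO2 anti-PD-1 71 for Pecam1 and Lum in the H2-Ea class were chosen after seeing the data, as was Dcn scaled by TMM, which gave 0 calls in each class. The Krt5 slope without the 2 farthest libraries could not be fitted in the H2-Ea class, where Krt5 was then at 0 throughout. No paired analysis was possible because the mouse numbers in the labels are each unique to 1 library. With 12 libraries a class, slopes of low genes such as Col17a1 and Col22a1 had standard errors above 1 log2 unit per doubling in some classes.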
